A study of Mus musculus with 8 samples.

Results

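The line EBF1-dTAG_N was compared after 6 h with dTAG-13 and after 6 h with DMSO, over every distinct accessible region of the authors' deposited table for that line. These were 55193 regions of the 109432 in the tables of the 2 lines of the series, and none was chosen by how it changed. Each region was joined to the peak lists of the 4 libraries of the line, 2 with DMSO and 2 with dTAG-13. The cells are mouse pro-B cells transformed with the Abelson virus (A-MuLV), in which a modified gene stands in for the endogenous EBF1. All 4 libraries carry the EBF1-dTAG_N genotype and differ in treatment, with 0.5 uM dTAG-13 or its solvent DMSO. The sample titles give the DMSO libraries a time of 0 h, where the treatment label gives 6 h, and the treatment label was followed. The series calls the 2 libraries of a group biological replicates, but nothing says whether they were separate cultures. P-values therefore reach no further than these libraries, and those of the deposited table rest on a spread pooled over regions. EBF1 protein was not measured in these data, and a single transformed line stands behind every value below.

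ATAC-seq reads out accessible chromatin, since the Tn5 transposase inserts adapters where DNA is not covered by nucleosomes. EBF1 is a transcription factor that commits progenitors to the B lineage. It binds palindromic sites in promoters and enhancers, works together with PAX5 and the E protein encoded by Tcf3, and is known to open chromatin at its sites. dTAG-13 is a small molecule that bridges a degron tag on a protein to the cereblon ubiquitin ligase, which sends the tagged protein to the proteasome.

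Promoters were the regions whose sequence could be read, although most falls lay elsewhere. The 3 windows that follow hold in capitals a palindrome, CCCNNGGG with a T before and an A after it, which is a form of the EBF1 site, and lie in regions that fell after dTAG-13. They were chosen after their values were seen, from the 27 windows of falling regions with these letters. Cd22 encodes an inhibitory coreceptor of B cells, Hip1r an adaptor of endocytosis and Il4i1 a secreted amino acid oxidase. Each window runs 5′ to 3′ in the direction of the gene, from 250 bases before to 50 after the start, in RefSeq's GRCm38.p6.
Cd22 (chr7:30878979-30879278, minus strand): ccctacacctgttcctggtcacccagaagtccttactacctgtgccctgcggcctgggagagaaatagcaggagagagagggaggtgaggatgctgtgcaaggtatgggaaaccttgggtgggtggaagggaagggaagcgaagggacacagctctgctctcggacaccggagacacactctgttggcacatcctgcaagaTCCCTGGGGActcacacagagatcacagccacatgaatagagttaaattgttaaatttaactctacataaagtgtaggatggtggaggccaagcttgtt
Hip1r (chr5:123973378-123973677, plus strand): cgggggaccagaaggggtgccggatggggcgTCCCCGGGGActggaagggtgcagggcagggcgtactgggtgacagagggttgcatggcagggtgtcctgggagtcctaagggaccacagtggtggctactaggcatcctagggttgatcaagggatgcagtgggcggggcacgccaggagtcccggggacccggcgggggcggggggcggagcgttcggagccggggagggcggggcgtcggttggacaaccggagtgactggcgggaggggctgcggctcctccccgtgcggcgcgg
Il4i1 (chr7:44836038-44836337, plus strand): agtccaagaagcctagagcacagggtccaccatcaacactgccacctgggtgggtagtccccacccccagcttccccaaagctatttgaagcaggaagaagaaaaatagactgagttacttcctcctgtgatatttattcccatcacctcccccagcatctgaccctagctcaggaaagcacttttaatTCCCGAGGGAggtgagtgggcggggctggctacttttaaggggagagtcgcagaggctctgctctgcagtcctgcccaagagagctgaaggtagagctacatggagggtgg

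The next 2 windows belong to the falling and the rising promoter region of smallest deposited p, at Igll1 and Tfeb. Neither holds the full palindrome, and the capitals mark the core CCCNNGGG alone. Igll1 codes for a protein of the surrogate light chain, and Tfeb a regulator of lysosomal genes.
Igll1 (chr16:16863936-16864235, minus strand): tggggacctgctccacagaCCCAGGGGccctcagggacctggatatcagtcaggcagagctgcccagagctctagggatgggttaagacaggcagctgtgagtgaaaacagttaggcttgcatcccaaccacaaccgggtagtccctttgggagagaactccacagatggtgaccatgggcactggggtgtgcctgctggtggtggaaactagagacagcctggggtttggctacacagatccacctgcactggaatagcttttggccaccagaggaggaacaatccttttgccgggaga
Tfeb (chr17:47737681-47737980, plus strand): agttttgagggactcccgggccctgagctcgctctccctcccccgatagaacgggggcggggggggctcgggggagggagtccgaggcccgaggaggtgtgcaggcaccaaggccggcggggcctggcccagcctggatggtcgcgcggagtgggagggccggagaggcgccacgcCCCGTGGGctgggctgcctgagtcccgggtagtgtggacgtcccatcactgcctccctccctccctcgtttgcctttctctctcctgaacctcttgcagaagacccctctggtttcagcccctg

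The regions at these windows behaved differently in the 4 libraries. Summit pileup is the number of reads stacked at the summit of a peak, solved from the values of each deposited peak. The Cd22 region had a summit pileup of 108 and 104 reads with DMSO and of 31 and 19 after dTAG-13, and fell by 1.55 (log2) in the authors' deposited table, at adjusted p = 7.78e-20. At Hip1r the pileup was 116 and 115 reads with DMSO and 21 and 29 after dTAG-13, with a fold of -1.74 (log2) in the authors' deposited table, at adjusted p = 5.19e-54. At Il4i1 it was 61 and 58 reads with DMSO, while neither dTAG-13 list held a peak, and the authors' deposited table gives a 6.30-fold fall, at adjusted p = 2.85e-28. The DMSO and dTAG-13 values of these regions, chosen after their values were seen, did not overlap. At Tfeb the values did overlap, with 244 and 235 reads against 192 and 262, with a rise of 1.37-fold in the authors' deposited table, at adjusted p = 1.32e-22.

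Depth in reads is unknown, and the background pileup of the peak lists served as relative depth. It was 0.408 and 0.401 with DMSO and 0.348 and 0.372 after dTAG-13, so it was lower in both dTAG-13 libraries. Reads at named regions are given without division by it, so the same number of reads is a higher relative level after dTAG-13. The dTAG-13 lists held 35851 and 39721 peaks and the DMSO lists 41613 and 40166. Median peak width was 279 and 280 bp after dTAG-13 against 292 bp in both DMSO lists. Peaks within 1 kb of a gene start numbered 10278 and 10527 after dTAG-13 and 10771 and 10638 with DMSO, a mean change of -2.82%. Peaks farther away numbered 25573 and 29194 against 30842 and 29528, a mean change of -9.28%. The 4 values did not overlap between groups in any of these measures, but 2 libraries against 2 allow no exact permutation p under 0.333 (two-sided), which is the value obtained for each, also after adjustment over these and the percent of peaks near starts, 5 measures in all. The difference in peak number, -3103.5, became -1168.5 when dTAG-13 replicate 1 was left out and -5038.5 when replicate 2 was. Of 10 pro-B markers, 8 or 9 had a peak within 1 kb of the start in every library, Dntt in none. The T cell markers Cd3e, Cd3d, Cd3g, Cd8a, Zap70 and Bcl11b had no such peak in any library, whereas Lck and Gata3 had one in all 4. Of 8 myeloid markers 0 or 1 had a peak, and of 4 erythroid markers 2, 1, 0 and 0. What part the lower background after dTAG-13 plays in the falls below was not tested.

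Accessibility changed in both directions, with larger falls than rises. At an adjusted p under 0.05 in the authors' deposited table, 10190 regions (18.5%) fell and 10383 (18.8%) rose. Falls had a median of -2.04 and rises of 0.63, as log2 folds of the authors' deposited table. Of these, 8243 falls and 2833 rises reached a 2-fold change, which is 14.9% and 5.13% of all 55193 regions. The median of all folds in the authors' deposited table was not 0 but 0.17, so a region that did nothing more than follow the bulk carried a positive fold. With folds centred on that median, 11454 regions (20.8%) fell and 4403 (7.98%) rose. The balance of falls to rises therefore depends on where no change is set. In a bulk assay, a smaller signal in every cell and a loss in some of the cells cannot be told apart. The spread behind these p-values was pooled over regions. From F and p, the denominator degrees of freedom came to 110386, against 11.2 in the table of the other line, EBF1-dTAG_C, so an adjusted p here does not rest on replicate spread at that region. Read against 11.2 degrees of freedom, 9002 regions (16.3%) fell and 6848 (12.4%) rose.

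**Figure D1:**
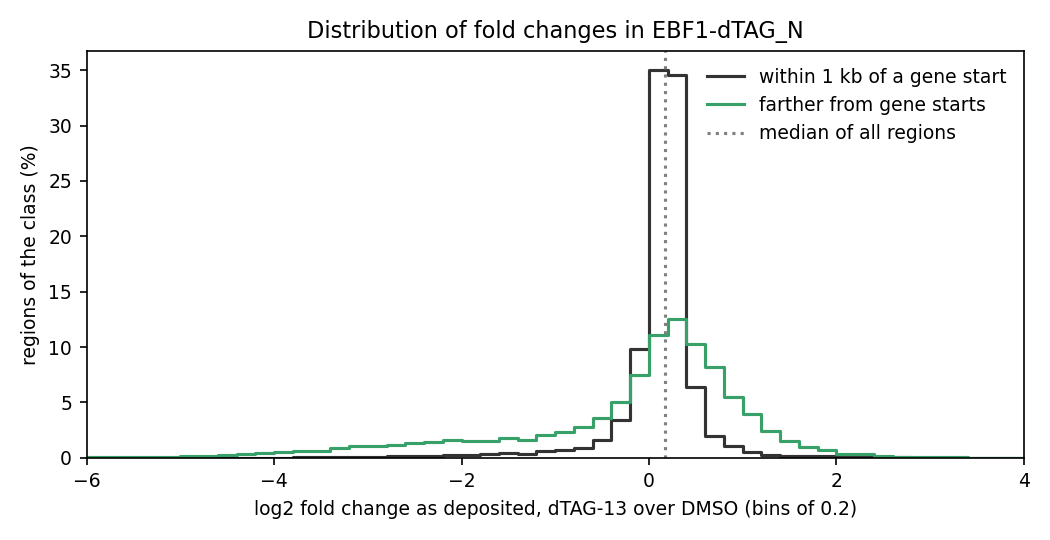
Share of regions (y axis, percent of the class) in bins of the deposited log2 fold change, dTAG-13 over DMSO (x axis), for 11619 regions within 1 kb of a gene start and 43574 farther away; the dotted line is the median of all regions, 0.17. Regions near starts crowd around that line, while the others carry a long tail to negative folds.

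Position relative to gene starts set the direction of the calls apart. Among the 11619 regions centred within 1 kb of a start, 6.03% fell and 28.2% rose, and among the 43574 others 21.8% fell and 16.3% rose. Falls thus lay almost all away from starts (93.1% of 10190). The many rises near starts were small: 80% of the regions there had a fold between -0.19 and 0.41 in the authors' deposited table. With centred folds 9.11% of them fell and 4.24% rose, and the share of all rises that lay near starts went from 31.6% to 11.2%. Away from starts, centred folds gave 23.9% falls and 8.97% rises.

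Beyond the start, the exact distance mattered little. Falls made up 21.2% of regions 1 to 5 kb from a start, 20.6% at 5 to 20 kb, 22.0% at 20 to 50 kb, 23.5% at 50 to 100 kb and 23.1% farther out. Inside genes 22.8% of 22874 regions fell and 16.0% rose. Outside genes the share of falls was 18.7% within 10 kb, 21.5% at 10 to 100 kb and 22.0% beyond 100 kb, with rises between 15.4% and 18.3%. Exons and introns were not told apart, since the gene table gives spans only.

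Abundance, the mean log2 CPM of a region, went with the share of calls. Rises climbed with it away from starts, and falls did so there but not near starts. In 5 equal classes from lowest to highest abundance, away from starts, 12.9%, 17.8%, 23.6%, 30.1% and 34.1% of regions fell. Near starts the share was 7.42% in the lowest class, 12.1% in the second and 4.45% in the highest. Rises near starts went from 10.3% in the lowest class to 40.1% in the highest, where 6726 regions lie. That last value dropped to 4.45% with centred folds, while rises away from starts in the highest class went from 32.8% to 15.7%. Since a more abundant region allows a smaller fold to be called, shares across classes also differ in what they could detect. Falls had a median of -2.80 on the log2 scale in the lowest class and -1.03 in the highest, in the authors' deposited table.

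**Figure D2:**
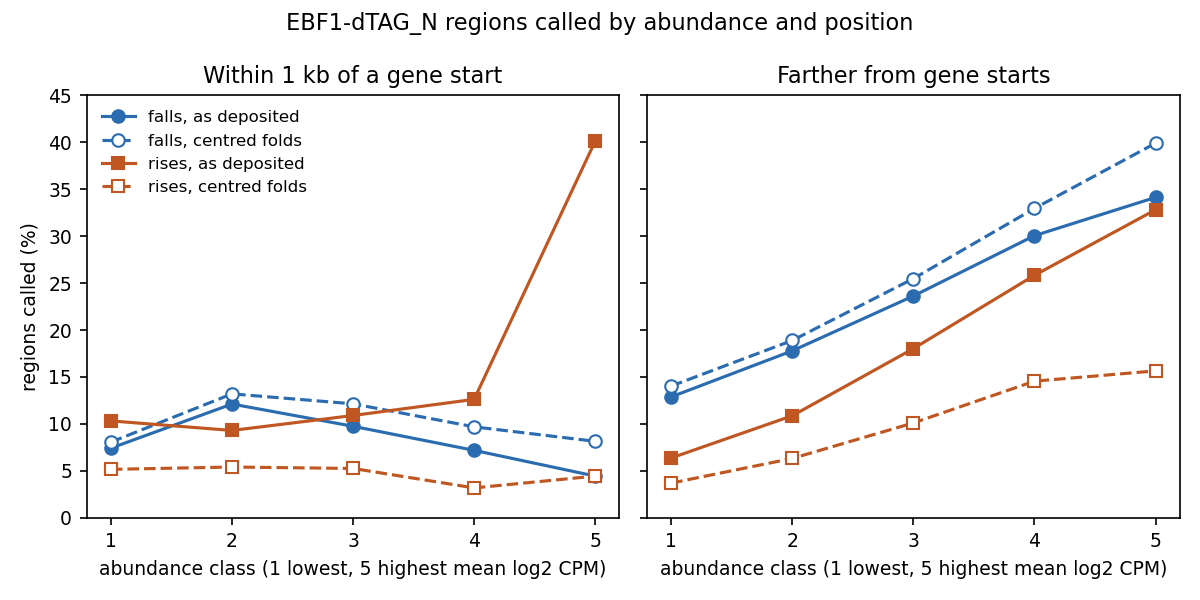
Percent of regions called falling (circles) or rising (squares) on the y axis against abundance class on the x axis, near gene starts (left) and farther away (right), for folds as deposited (filled, solid) and centred on the table median (open, dashed). Falls climb with abundance away from starts only, and the rise share of 40.1% in the highest class near starts is 4.45% on centred folds.

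Named regions, picked by smallest deposited p within 10 kb of a gene, give examples from each abundance class. In the lowest class, the falls picked in this way rested on few reads. A region 9709 bp outside Pip5k1b, a lipid kinase gene, had summit pileups of 13 and 8 reads with DMSO and no peak after dTAG-13. Its fold was -7.66 (log2) in the authors' deposited table. Psap, which encodes the lysosomal prosaposin, held a region with a peak of 13 reads in 1 DMSO list and in no other list. A region inside Pgs1, a gene of phospholipid synthesis, rose with a single peak of 9 reads in dTAG-13 replicate 2. Each of these regions had at most 13 reads at its summit.

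In the classes above, losses were seen in both replicates. A region inside Ttc7b had 21 and 25 reads with DMSO and no peak after dTAG-13, and one inside the collagen gene Col14a1 had 32 and 20 reads and none. Inside Cux2, a homeobox gene, the pileup was 51 and 36 reads with DMSO, and inside Gpr158, a G protein-coupled receptor gene, 58 and 49, again with no peak after dTAG-13. The authors' deposited table gives these last regions folds of -5.69 and -7.35 on the log2 scale, at adjusted p = 1.25e-37 and 2.89e-37. In the fourth class, Adap1 (72 and 67 reads) and Cmip (108 and 96 reads) lost every peak, with folds of -5.07 and -5.33 (log2) in the authors' deposited table. The fifth class held losses in which a small peak stayed. Inside Zdhhc7, a palmitoyltransferase gene, 304 and 311 reads with DMSO faced 10 and 8 after dTAG-13, a 19.0-fold fall in the authors' deposited table (chromosome 8, 120081129 to 120081807, adjusted p listed at 0). Inside Fetub, a fetuin gene, the values were 234 and 228 against 11 and 14, a 9.93-fold fall in the authors' deposited table.

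Rising regions of the same classes gained less. Inside Galk2, a kinase gene, and Grap2, an adaptor gene, no DMSO list held a peak, and both dTAG-13 lists did, with 25 and 19 reads and with 16 and 18 reads. In the lowest class, a region inside Med12l, a Mediator subunit gene, had no DMSO peak and dTAG-13 peaks of 8 and 7 reads. Inside Nob1, a ribosome assembly gene, the pileup went from 9 and 10 reads to 21 and 39, a 4.71-fold rise in the authors' deposited table, at adjusted p = 4.13e-16. Inside Slc39a10, a zinc transporter gene, 24 and 10 reads faced 65 and 64, a 4.18-fold rise in the authors' deposited table, at adjusted p = 3.02e-31. Inside Tpcn1, an endolysosomal channel gene, only DMSO replicate 2 had a peak, of 27 reads, against 37 and 49 after dTAG-13. Inside Septin9, a cytoskeletal gene, the values were 39 and 59 against 107 and 127, a 2.79-fold rise in the authors' deposited table, at adjusted p = 1.06e-35. Near Moxd2 they were 54 and 82 against 98 and 113, a 2.40-fold rise in the authors' deposited table. The dTAG-13 values lay above the DMSO values in each of these regions with peaks in all lists, which were picked by smallest deposited p. Of all 7358 rising regions with a solved peak in all 4 lists, 45.8% had both dTAG-13 summit pileups higher, relative to background pileup.

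Wide regions were called more often than narrow ones. From the narrowest to the widest of 5 classes, 12.3%, 12.5%, 19.9%, 25.9% and 21.9% fell and 8.31%, 9.31%, 16.1%, 24.5% and 35.9% rose, the last 10.5% with centred folds. Width goes with abundance, but within the fourth abundance class falls still went from 12.7% of the narrowest regions to 33.7% of the widest. Position was not held there, since 48.7% of these narrowest and 22.8% of these widest regions lay near starts. In the fifth abundance class 17.4% of the widest fell. In the second, 25.4% of the widest fell, against 37.7% of the next narrower class. The widest fall, of 1708 bp, lay 54 bp from the start of Tut4, a gene for an RNA uridylyltransferase, with 60 and 70 reads against 32 and 32 and a fold of -0.81 (log2) in the authors' deposited table. The widest rise, of 2037 bp, lay inside Crlf2, a cytokine receptor gene. It had 128 and 129 reads against 124 and 122, before division by the background pileup, which was lower after dTAG-13. Its fold of 0.25 (log2) in the authors' deposited table was no longer called once centred (0.08).

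Summit fold enrichment is the height of a peak over the local background of its own library, and regions were ranked by it within the list of DMSO replicate 1. The authors' values ran from 2.44 to 53.7. Away from starts, the share of falls went up over the 5 classes from 22.4% to 43.6%. Near starts it went down from 10.3% to 2.94%. The ranking list is itself part of the fold. Ranked by the list of dTAG-13 replicate 1, without regard to position, falls were 10.5% in the lowest class, 5.57% in the highest and 34.4% where that list had no peak. Of 14092 regions with no peak in the list of DMSO replicate 1, 5.42% fell and 17.0% rose. Ranking by DMSO replicate 2 gave falls of 21.5% to 25.8% over its classes, against 20.4% to 25.9% for replicate 1, without regard to position.

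Chromosomes differed little. Over the autosomes falls made up between 16.6% (chromosome 3) and 20.7% (chromosome 6) of regions, and rises between 16.8% (chromosome 6) and 21.1% (chromosome 3). The X chromosome had the lowest shares of the chromosomes with over 100 regions, with 13.8% falls and 16.0% rises among 1142 regions. A larger part of its regions lay near starts (27.9%, against 21.1% overall), and away from starts its falls were still the fewest, at 17.3%, against at most 23.7% on chromosome 6. Chromosome Y held 13 regions, too few to read.

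Loss of a whole peak and lowering of a peak that stayed were both common. Peaks present in both DMSO lists were absent from both dTAG-13 lists at 5671 regions, of which 82.1% fell, with a median fold of -2.31 (log2) in the authors' deposited table. These lost peaks were modest, with median summit pileups of 19 and 18 reads with DMSO. The reverse pattern held 1948 regions, of which 44.5% rose, with median pileups of 9 and 10 reads. Of all falls, 45.7% were lost peaks and 27.9% had a peak in all 4 lists. Of all rises, 70.9% had a peak in all 4 lists and 8.34% were gained peaks. Falls that kept a peak were tall, with median pileups of 79 and 72 reads against 23 and 27. Leaving out 1 library loosens the rule on the side that lacks it. The lost count was then 6710 to 9073, the highest without DMSO replicate 2. The gained count was 3536 and 3211 without DMSO replicates 1 and 2, and 6241 and 4502 without dTAG-13 replicates 1 and 2.

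The summit pileup, divided by the background pileup of its library, gave a level for each library that does not use the deposited folds, although it comes from the same libraries. It could be compared in the 25447 regions with a solved peak in all 4 lists. In 6114 of them (24.0%) each dTAG-13 level was under each DMSO level, and in 5272 (20.7%) over it. Of 2848 falling regions 92.7% had both dTAG-13 values lower, with a median difference of -1.18 on the log2 scale. Of 7358 rising regions 45.8% had both higher, with a median of 0.23. The rises away from starts had a median of 0.39 and those near starts 0.10, where 28.6% had both higher. The median near-start rise was 0.02 when dTAG-13 replicate 2 was left out and 0.19 when replicate 1 was, so its size rests on single libraries.

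On this scale the bulk of regions did not move. The median difference was 0.00 near starts and -0.00 away from them, where the authors' deposited table has medians of 0.19 and 0.22 on the log2 scale for the same regions. The replicates of a group differed by a median of -0.10 (DMSO) and 0.17 (dTAG-13) near starts, replicate 2 minus 1, which is as large as the median near-start rise. Across regions the level differences and the deposited folds correlated with a Pearson r of 0.903 (25447 regions, the same libraries behind both).

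**Figure D3:**
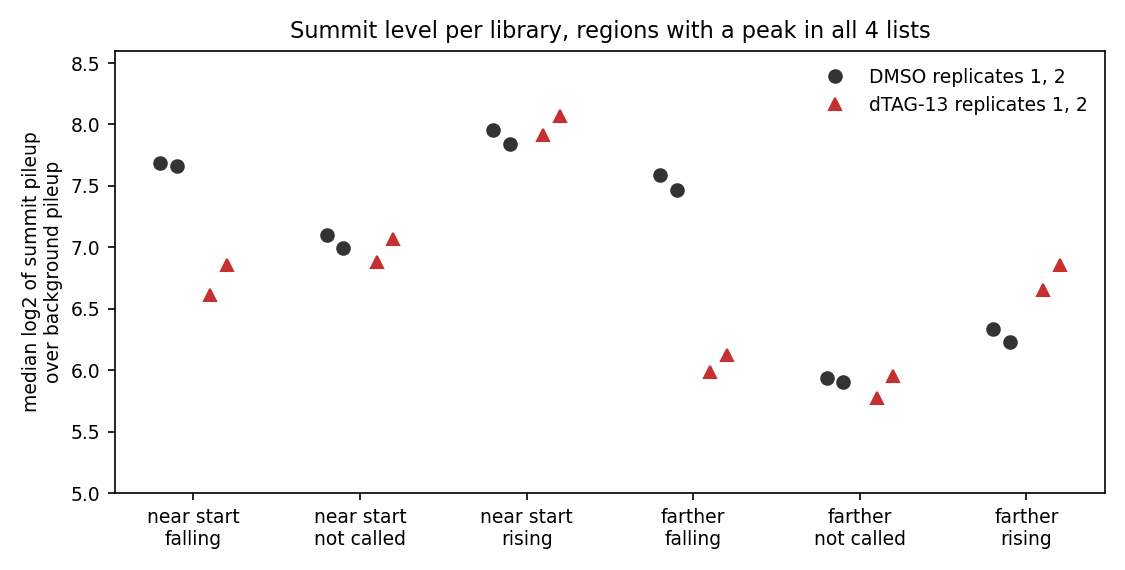
Median log2 ratio of summit pileup to background pileup (y axis) in each of the 4 libraries, for regions near gene starts and farther away by deposited call (x axis), among regions with a peak in all 4 lists. Falling regions separate the groups by more than 1 unit away from starts, whereas near-start rising regions overlap between groups.

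The other line, EBF1-dTAG_C, was treated alike, with 2 libraries per group and none shared with EBF1-dTAG_N. Of the falls in EBF1-dTAG_N 71.1% overlapped a region of the EBF1-dTAG_C table. Their median fold there was -1.51 (log2) in the authors' deposited table and 97.5% were negative, against 40.9% of all overlapping regions. Falls were called there for 33.6% of all EBF1-dTAG_N falls and rises for 0, against 6.62% and 0.308% of all EBF1-dTAG_C regions. In turn, 95.9% of the 3593 falls of EBF1-dTAG_C overlapped a fall of EBF1-dTAG_N, where 18.5% of all EBF1-dTAG_N regions fell. Of the rises, 90.5% overlapped an EBF1-dTAG_C region, with a median fold of 0.26 (log2) in the authors' deposited table. Against the median of the EBF1-dTAG_C table, 78.0% of these lay above, where 48.5% of all overlapping regions did. Near starts 61.0% of rises lay above it, and of the rises called on centred folds 90.3% did. Of the 167 rises of EBF1-dTAG_C, 78.4% overlapped a rise of EBF1-dTAG_N, where 18.8% of all EBF1-dTAG_N regions rose. The difference between the lines was not tested here.

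Regions that changed lay beside others that changed the same way. Where a falling region had a neighbour within 2 kb, that neighbour fell in 40.6% of cases, against 21.7% for all 18317 regions with such a neighbour. For rising regions the neighbour rose in 37.2% of cases, against 20.4%. Within 10 kb the shares were 34.2% against 20.6% for falls and 32.0% against 19.6% for rises. Neighbouring regions are not independent, so these shares are given without a test. Among genes, assigned by the nearest protein-coding gene within 100 kb, Msi2 held most falls, with 19 of 43 regions and 4 rises. Msi2 encodes an RNA-binding protein. Rad51b, a recombination repair gene, followed with 18 of 50 (8 rises), and Foxp1 and Zmiz1, both genes of transcriptional regulators, with 17 each, of 72 and 45. Foxp1 also held most rises, 17, ahead of Snx29 with 16 of 44 and Sorcs2 with 15 of 33. With centred folds the rises of Foxp1, Snx29 and Sorcs2 were 8, 11 and 10, so Foxp1 no longer led. These genes carry many regions each.

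The genes of the early B cell programme, many of them known EBF1 targets, held more falls and fewer rises than the table as a whole. Of 217 regions assigned to 25 B lineage target genes, 72 (33.2%) fell and 26 (12%) rose, against 18.2% and 18.8% of all 51763 assigned regions. With centred folds 76 (35.0%) fell and 12 (5.53%) rose, against 20.5% and 7.80% of all. Their median fold was -0.02 (log2) in the authors' deposited table, against 0.17 for all assigned regions. At least 1 region fell at 23 of the 25 genes and at least 1 rose at 11, where 34.1% and 41.1% of all genes with a region had one. With centred folds a region rose at 6 of the genes and at 18.6% of all genes; these genes had a median of 4 regions, against 2. The exceptions without a fall were Cd53 and Myl4. All 4 regions of Vpreb3 and all 3 of Fcrla fell, as did 7 of 12 at the repressor gene Hes1 and 8 of 26 at Foxo1. Ebf1 itself held 3 falls and 6 rises in 27 regions. The list was drawn up with results of these data known, so its direction is not independent evidence.

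**Figure D4:**
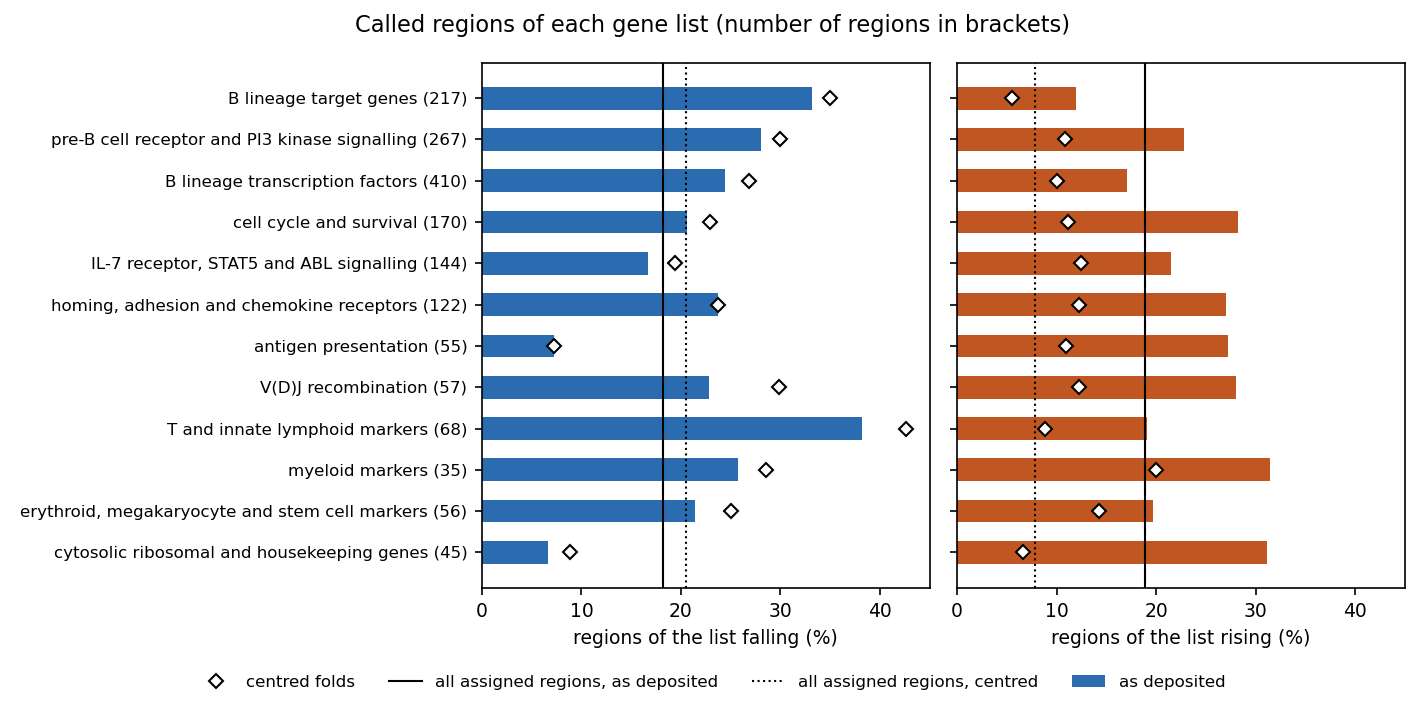
Percent of regions assigned to each gene list (rows) that fell (left) or rose (right) after dTAG-13, as deposited (bars) and with centred folds (diamonds), with the shares of all assigned regions as vertical lines. The B lineage target genes have 33.2% falls against 18.2% of all, and the ribosomal and housekeeping genes 6.67%.

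At Igll1 the start itself lost accessibility. The region (chromosome 16, 16863825 to 16864407), centred 130 bp from the start, had 385 and 339 reads with DMSO and 33 and 41 after dTAG-13. The authors' deposited table gives an 8.30-fold fall, at adjusted p = 3.5e-314. Lef1, which encodes a factor of the Wnt pathway found in pro-B cells, had 90 and 87 reads 3102 bp from its start, and after dTAG-13 no peak and 15 reads, a 4.22-fold fall in the authors' deposited table, at adjusted p = 2.37e-118. Bst1, a surface enzyme of bone marrow lymphocytes, had a region that rose 12613 bp from its start, from 47 and 39 reads to 72 and 81, 2.21-fold in the authors' deposited table, at adjusted p = 7.48e-16.

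Genes of pre-B cell receptor and PI3 kinase signalling held both directions. Of 267 regions, 75 (28.1%) fell and 61 (22.8%) rose, against 18.2% and 18.8% of all assigned regions. With centred folds 80 (30.0%) fell and 29 (10.9%) rose, against 20.5% and 7.80% of all. At least 1 region fell at 20 of 24 genes and at least 1 rose at 20 (14 with centred folds), where 34.1% and 41.1% of all genes had one. These genes had a median of 12.5 regions and a median fold of 0.12 (log2) in the authors' deposited table. A region inside Inpp5d, which encodes the phosphatase SHIP-1, had 346 and 293 reads with DMSO and 61 and 61 after dTAG-13, a 4.21-fold fall in the authors' deposited table, at adjusted p = 5.25e-144. Near the start of Plcg2 (979 bp), the phospholipase downstream of the receptor, 109 and 116 reads faced 17 and 18, a 5.35-fold fall in the authors' deposited table, at adjusted p = 1.10e-94. Neither region, both picked by smallest deposited p, had overlapping values between the groups. Inside Vav1, a guanine nucleotide exchange factor gene, a region rose 1.61-fold in the authors' deposited table, at adjusted p = 1.13e-14, although its pileups of 91 and 68 against 70 and 78 reads overlapped. Rasgrp1 held 8 rises and no fall in 13 regions, and Pik3cd 6 falls and 1 rise in 9.

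B lineage transcription factor genes had a falling region at each of the 24 members, where 34.1% of all genes had one. Of their 410 regions 100 (24.4%) fell and 70 (17.1%) rose, against 18.2% and 18.8% of all assigned regions. Centred folds gave 110 falls (26.8%) and 41 rises (10.0%), against 20.5% and 7.80% of all. Their median fold was 0.15 (log2) in the authors' deposited table, with a median of 17 regions per gene, against 2 for all genes. Inside Tcf3, the E protein gene, a region went from 243 and 245 reads to 59 and 65, a 2.94-fold fall in the authors' deposited table, at adjusted p = 9.98e-106. Beside Bach2, which encodes a repressor of plasma cell differentiation, a region rose from 43 and 46 reads to 76 and 89, 1.98-fold in the authors' deposited table, at adjusted p = 9.96e-16, while 11 of its 39 regions fell. Ikzf1, which encodes Ikaros, held 10 rises and 2 falls in 21 regions, and Foxo1 no rise.

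Cell cycle and survival genes had 48 rises (28.2%) and 35 falls (20.6%) in 170 regions, against 18.8% and 18.2% of all assigned regions. Centred folds gave 19 rises (11.2%) and 39 falls (22.9%), against 7.80% and 20.5% of all. Bcl2l1, which encodes the survival protein BCL-XL, held 6 falls in 11 regions. Inside it, 304 and 285 reads faced 73 and 89 at one region, a 2.70-fold fall in the authors' deposited table, and 110 and 107 reads faced no peak at another, an 8.81-fold fall in the authors' deposited table, at adjusted p = 4.67e-131 and 1.01e-90. Near Ccnd2, which encodes cyclin D2, a region rose from 38 and 26 reads to 46 and 59, 1.94-fold in the authors' deposited table, at adjusted p = 7.92e-10. Myc held 4 rises and no fall in 12 regions.

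Interleukin 7 receptor, STAT5 and ABL signalling genes had 24 (16.7%) falls and 31 (21.5%) rises in 144 regions. These shares were near the 18.2% and 18.8% of all assigned regions. Centred folds gave 28 falls (19.4%) and 18 rises (12.5%), against 20.5% and 7.80% of all. Single regions fell steeply. A region 34842 bp from the start of Il7r, the receptor gene that early B cells depend on, had 187 and 201 reads with DMSO and 15 and 19 after dTAG-13, an 8.50-fold fall in the authors' deposited table, at adjusted p = 5.85e-111. Inside Stat5b, the gene of a factor that acts downstream of that receptor, 129 and 123 reads faced 14 and 15, a 6.80-fold fall in the authors' deposited table, at adjusted p = 1.15e-81. Near Cish, a feedback inhibitor gene of the pathway, a region rose 1.80-fold in the authors' deposited table, at adjusted p = 7.90e-27, with 75 and 89 reads against 89 and 114.

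**Figure D5:**
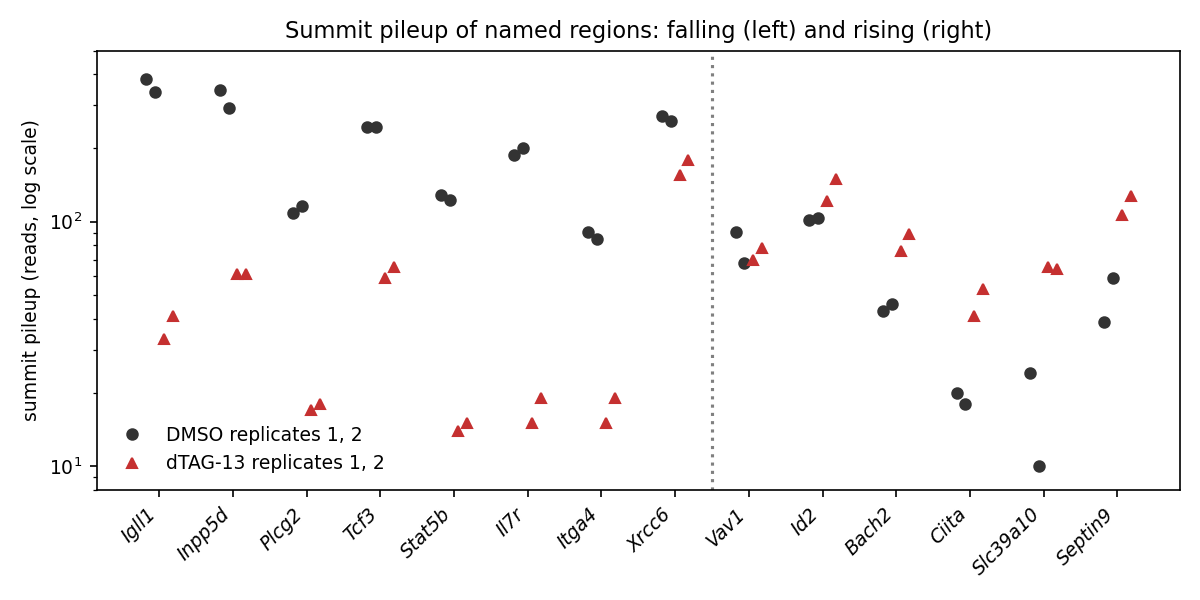
Summit pileup in reads (y axis, log scale) in the 2 DMSO and the 2 dTAG-13 libraries at named regions, labelled with the assigned gene (x axis), falling left and rising right of the dotted line. The regions are a selection from the named ones, which were mostly picked by smallest deposited p. The groups are apart at all 8 falling regions shown, whereas at Vav1 they overlap. Reads also overlap at the named rising regions of Tfeb, Actb and Dntt. Of all 2848 falling regions with a solved peak in every list, 92.7% had both dTAG-13 levels lower, relative to background pileup. Of 7358 such rising regions, 45.8% had both higher.

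Genes of homing and adhesion had 29 falls (23.8%) and 33 rises (27.0%) in 122 regions, against 18.2% and 18.8% of all assigned regions. Centred folds gave 29 falls (23.8%) and 15 rises (12.3%), against 20.5% and 7.80% of all. Cxcr4, the receptor that keeps precursors in the bone marrow, lost a region 61011 bp from its start (28 and 21 reads, no peak after dTAG-13) and gained at one 22585 bp away (21 and 20 reads against 24 and 33). Near Itga4, an integrin gene, 91 and 85 reads faced 15 and 19, a 3.57-fold fall in the authors' deposited table, at adjusted p = 3.91e-41. Itgb1, the partner integrin gene, held 7 rises and no fall in 11 regions.

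Antigen presentation genes had few falls, 4 (7.27%) in 55 regions, and 15 rises (27.3%), against 18.2% and 18.8% of all assigned regions. Centred folds gave 4 falls (7.27%) and 6 rises (10.9%), against 20.5% and 7.80% of all. The falls include the start of Cd40, a costimulatory receptor gene, with 68 and 60 reads against no peak and 7, and a region near H2-Oa, with 52 and 63 against no peak and 19. Inside Ciita, the master regulator gene of MHC class II, a region rose from 20 and 18 reads to 41 and 53, 2.13-fold in the authors' deposited table, at adjusted p = 9.79e-10. The V(D)J recombination genes had 13 falls (22.8%) and 16 rises (28.1%) in 57 regions, against the same 18.2% and 18.8%. With centred folds they had 17 falls (29.8%) and 7 rises (12.3%), against the same 20.5% and 7.80%. Inside Xrcc6, which encodes the Ku70 end-joining protein, 271 and 259 reads faced 155 and 178, a 1.46-fold fall in the authors' deposited table, at adjusted p = 5.83e-18. Near Hmgb1, an architectural DNA-binding protein gene, 55 and 27 reads faced no peak. Inside Dntt, the terminal transferase gene, a region rose 1.73-fold in the authors' deposited table, at adjusted p = 3.40e-07. Its pileups of 37 and 29 against 36 and 48 reads overlap as reads, before division by the background pileup, which was lower after dTAG-13.

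Genes that mark other blood lineages also held called regions. Of 68 regions at 12 measured T and innate lymphoid genes, 26 (38.2%) fell and 13 (19.1%) rose, against 18.2% and 18.8% of all assigned regions. With centred folds 29 (42.6%) of these 68 fell and 6 (8.82%) rose, against 20.5% and 7.80% of all. They had a median fold of -0.18 (log2) in the authors' deposited table. Tcf7, which encodes the T cell factor TCF-1, held 7 falls in 12 regions, one from 65 and 42 reads to no peak. Notch1 held 7 falls in 12, one from 147 and 154 reads to 42 and 51, and Il2ra 6 falls in 16. Id2, which encodes an inhibitor of E proteins, went the other way, with 6 rises and 2 falls in 11 regions, though 4 and 4 with centred folds. A region 93317 bp from its start had 102 and 104 reads with DMSO and 122 and 150 after dTAG-13, a 1.99-fold rise in the authors' deposited table, at adjusted p = 2.54e-31. The Cd3e, Cd3g, Cd8a, Bcl11b and Ptcra genes had no region at all. Of 35 regions at 8 measured myeloid genes 9 fell and 11 rose (10 and 7 with centred folds), with Cebpb at 6 falls in 13 and Fcgr3, a low affinity Fc receptor gene, at 4 rises in 7. A region near Fcgr3 had no peak and 16 reads with DMSO and 30 and 28 after dTAG-13. Of 56 regions at 12 measured erythroid, megakaryocyte and stem cell genes, 12 (21.4%) fell and 11 (19.6%) rose, near the shares of all assigned regions. Centred folds gave 14 falls (25.0%) and 8 rises (14.3%), against 20.5% and 7.80% of all. Inside Erg, an ETS factor gene, regions with 105 and 99 reads and with 36 and 63 reads had no peak after dTAG-13.

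Cytosolic ribosomal and housekeeping genes had few falls, 3 (6.67%) in 45 regions, and 14 rises (31.1%), against 18.2% and 18.8% of all assigned regions. Centred folds gave 4 falls (8.89%) and 3 rises (6.67%), against 20.5% and 7.80% of all. One of the falls was a region 16277 bp from the start of Actb, the beta actin gene, with 91 and 65 reads and no peak after dTAG-13, a 24.9-fold fall in the authors' deposited table, at adjusted p = 4.57e-157. A region 1206 bp from the same start rose 1.43-fold in the authors' deposited table, at adjusted p = 3.18e-09, with overlapping pileups of 75 and 40 against 61 and 68 reads.

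Promoter windows of the RefSeq table, 300 bases each, were searched on both strands for letters of known factors. Of 21263 windows of 17492 genes, 308 overlapped a falling region, 3074 a rising one and 5687 a region without a call. The full palindrome shown above stood in 8.77% of falling windows (27), in 0.488% of rising ones (15), in 0.809% of those without a call and in 0.959% of all windows. The shorter core CCCNNGGG, which lies within it, stood in 41.2%, 16.8%, 17.3% and 15.6%. The RUNX letters TGTGGT were in 18.2% of falling and 10.7% of rising windows (15.0% of all), and the ETS letters GGAAGT in 30.5% and 29.9% (24.8% of all). CCAAT was in 29.9% of falling and 42.3% of rising windows (38.2% of all), and the AP-1 letters TGANTCA in 3.90% and 3.45% (6.99% of all). Median GC content was 60.3% in falling and 64.0% in rising windows.

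Read by region, the 82 with a window holding the full palindrome included 24 falls (29.3%) and 14 rises (17.1%), and none of these rises was called with centred folds. Over all 7567 regions in a promoter window 3.59% fell and 32.6% rose, and where a window held neither form 2.47% fell. Most regions with these letters were therefore not lowered, and most lowered promoters did not hold them in their windows. Besides Cd22, Hip1r and Il4i1, falling promoter regions with the palindrome include Sdc4, a syndecan gene, with 86 and 83 reads against 23 and no peak, and Ceacam1, an adhesion molecule gene, with 108 and 109 against 61 and 48. The falls at the promoters of S100a3, a calcium-binding protein gene (138 and 131 reads, no peak after dTAG-13), and Apbb1, an adaptor of the amyloid precursor protein (137 and 101 reads, no peak), came without either form in the window. The window covered 111 bp of the 634 bp S100a3 region and 300 bp of the 587 bp Apbb1 region. The rest of these regions was not searched. Of the rising promoters of smallest deposited p, Socs1, a feedback inhibitor of cytokine signalling, had 112 and 114 reads against 116 and 160, a 1.35-fold rise in the authors' deposited table, at adjusted p = 5.65e-16.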

How the data were processed

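Per the submitters' processing notes, edgeR 3.32.0, MACS2 2.2.7.1, deepTools 3.3.2, SAMtools 1.10 and Bowtie2 2.3.5.1 were used with GRCm38 (mm10). Roles of the tools, read filters and any shift of insertion sites were not stated in the sources read. The authors deposited 1 table per line with log2 fold changes and mean log2 CPM. It also gives, per the deposited columns, the F score of each region, its p-value and that p-value adjusted by the Benjamini-Hochberg method. The authors deposited 1 peak list per library, with a score, a ratio (fold enrichment over local background) and −log10 p-values and q-values per peak. The table holds no values per library, so no region test was refitted.

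The 12 repeated of 55205 entries were counted once. Positive folds mean more accessible after dTAG-13: 96.7% of regions with peaks in both DMSO lists alone were negative and 97.8% of the reverse were positive. Regions were called at adjusted p under 0.05. Centring subtracted the table median (0.17), with a standard error of |log2 fold| over the square root of F, a normal p and Benjamini-Hochberg adjustment. A region had a peak where they overlapped by at least 1 bp. Summit pileup and background were solved from fold enrichment and −log10 p (relative tolerance 0.0001). Gene starts came from RefSeq's GRCm38.p6 tables, as transcript starts for 17492 protein-coding genes and as both ends of the gene for 4395 genes listed without a start. Abundance, width and summit classes are 5 of equal size. Values per library were compared by two-sided exact permutation. The computations used Python with pandas 2.3.3, numpy 2.4.6 and scipy 1.17.1 and were tested on simulated data.

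Named regions are the 2 falls and 2 rises of smallest deposited p in each abundance class within 10 kb of a gene, 2 falls and 1 rise per gene list, the widest fall and rise, the 3 genes with most falls and with most rises, and 3 falling and 2 rising promoters. Members, lists and rules were chosen with earlier results of these data known. The 4 peak lists of EBF1-dTAG_C were not used here.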

Additional observations from a re-analysis of the deposited data

How the results depend on the processing

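Falls kept within 1.5 times of 10190 in the alternatives except for regions of at least median abundance only (5779). Rises numbered 10383 as deposited, 4403 with centred folds, 6848 with F read against EBF1-dTAG_C's degrees of freedom and 2833 at 2-fold. With centred folds, falls and rises were 13.9% and 3.74% in the lowest abundance class, 20.6% and 8.82% in the highest, and 9.11% and 4.24% near starts. With folds as deposited, falls and rises within 5 kb of a start were 11.3% and 24.2%. All 29 rise shares by class were lower on centred folds, the cause being the shift of the zero point itself. Leaving out 1 library gave peak number differences of -5038.5 to -1168.5, width differences of -13 to -12 bp, 0.318 to 2.48 points for peaks near starts, 6710 to 9073 lost and 3211 to 6241 gained regions, and pileup medians of -0.09 to 0.09 near and -0.08 to 0.07 away from starts. The pileup and repeated-entry alternatives were chosen after seeing the data. With the replicate number as a block the differences stay at -3103.5 peaks, -12.5 bp and 1.40 points, with exact permutation p = 0.500, the smallest that 2 pairs allow. The labels share only numbers, and the replicate differences of the 2 groups correlated with r = -0.00689 over 25447 regions. Of 48 gene list results, 7 moved by over 1.5 times, 0 of them for falls. Depth limits the lowest abundance class, where named losses rest on 8 to 13 reads.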
